A study of Arabidopsis thaliana with 16 samples.

Results

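Strong shade was compared with shade in Arabidopsis thaliana seedlings that lack the photoreceptor phytochrome A. The comparison took its members from the array titles alone: 3 arrays of phyA seedlings in strong shade against 3 arrays of phyA seedlings in shade, 6 of the 16 arrays of the series. Both groups carried phyA-211, a null mutation of the phytochrome A gene in the Col-0 background, and both were whole seedlings grown for 5 days in continuous white light and then kept under LEDs for 24 h. Shade had a red to far-red ratio of 0.7, from 13 µmol m-2 s-1 of red and 21 of far-red light, and strong shade had a ratio of 0.1, from 3 of red and 30 of far-red light. Both included blue light at 3.5 in the same unit. The step from shade to strong shade therefore lowered red light and raised far-red light together, with blue light held. Col-0 wild type (WT) seedlings of the same age, 3 arrays in each of the same shade conditions, served for comparison. The remaining 2 WT and 2 phyA arrays came from seedlings left in white light at about 45 µmol m-2 s-1. They enter here through the estimate of spread, and the phyA ones also through their levels of NdhN and of 4 genes induced by a low red to far-red ratio. The submitters describe the arrays of a group as biological replicates. The mutant is represented by 1 allele, and because RNA came from whole seedlings, fewer cells of a type and less RNA per cell cannot be told apart.

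Phytochromes are photoreceptors that switch between a red-absorbing and a far-red-absorbing form. Phytochrome B is inactivated when far-red light outweighs red light, as under leaves, and its loss of activity releases growth of the stem and leaf stalks. Phytochrome A acts in the opposite sense in strongly far-red-enriched light: it signals there, and restrains elongation under dense canopies. FHY1 and FHL carry active phytochrome A into the nucleus, where transcription factors such as HY5 and its relative HYH act downstream. In phyA seedlings the step to a lower ratio is thus sensed without this receptor, and the fall in red light also lowers the light available for photosynthesis.

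Each probe set was read as log2 of the deposited intensity. All levels below are log2 intensities, and all differences are strong shade minus shade on the log2 scale, given with the standard error of the fit. A probe set was called at a limma adjusted p under 0.05 after Benjamini-Hochberg adjustment over all 22746 probe sets. Deposited intensities ran from 2.33 to 6167 on the linear scale and array medians from 13.5 to 15.1. The annotation gave 1 gene to 13513 probe sets, which stand for 13356 genes, and only 1557 of these have a symbol other than a locus tag. Below, a member of a gene list or family counts as measured only where it has such a symbol. Members with a locus tag only were not counted, whether or not they have a probe set. The plastid-encoded family, taken by locus, is the exception. No probe set was named as PHYA, so the genotype labels have no check from the mutated gene. NdhN, a subunit of the chloroplast NADH dehydrogenase-like complex, lay at 4.70 or below on the 6 phyA arrays, the third arrays included, and at 7.06 or above on the 6 WT arrays of the same shades. On the 2 phyA arrays in white light it read 8.01 and 7.92, so a low level did not mark phyA in every light. The gene was picked after its values were seen and is no check of the genotype labels.

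The third array of each phyA group stood apart from the other arrays of its label. The array labelled phyA shade 3 correlated at r = 0.986 with phyA shade arrays 1 and 2, and at 0.993 to 0.994 with phyA strong shade arrays 1 and 2. The array labelled phyA strong shade 3 correlated at 0.979 to 0.983 with its own arrays 1 and 2, and at 0.991 to 0.992 with phyA shade arrays 1 and 2. In a model of the 6 WT shade and strong shade arrays alone, 848 probe sets were called, 306 higher (1.35%) and 542 lower (2.38%) in strong shade. The difference between phyA arrays 1 and 2 of each group had the WT sign in 786 of these (92.7%), and the difference between the third phyA arrays had it in 61 (7.19%). Among all probe sets the same shares were 63.7% and 36.5%. Over all 22746 probe sets, which are not independent replicates, the difference on arrays 1 and 2 correlated with that of the third pair at r = -0.631. The third arrays are kept under their labels throughout, and whether those labels are right was not tested. Results are given for all 6 arrays and for arrays 1 and 2 of each group. The arrays left out of the second fit were picked on these data, so its p-values do not carry the uncertainty of that choice.

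With all 6 arrays, no probe set was called in either direction (0%). The smallest adjusted p was 0.998, and 852 probe sets (3.75%) had an unadjusted p under 0.05. Ranges of the 3 arrays of each group did not overlap for 1019 probe sets with strong shade above shade (4.48%) and 729 with strong shade below it (3.2%). The fit with array weights also called none, with a smallest adjusted p of 0.0678, and gave weights of 0.472 and 0.335 to the third shade and the third strong shade arrays against 0.881 to 1.96 for the other 4.

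Among named genes whose 6 arrays did not overlap, the lowest differences belonged to genes known here by locus tag alone. AT1G09500 read 4.06, 5.02 and 3.65 in shade and 3.62, 3.05 and 3.36 in strong shade, a difference of -0.90 ± 0.478. AT2G29360 read 2.86, 3.62 and 3.50 against 2.80, 2.26 and 2.38, a difference of -0.85 ± 0.184. For these 2 genes all 3 strong shade arrays, the third array included, lay below the 3 shade arrays, but by only a small gap. The nearest shade and strong shade levels were 3.65 and 3.62 for AT1G09500, and 2.86 and 2.80 for AT2G29360. The differences of AT5G62340, AT2G29300 and AT4G39970 were -0.80 ± 0.208, -0.75 ± 0.233 and -0.71 ± 0.195. At the other end AT2G41730 read 4.77, 5.02 and 5.38 in shade and 5.66, 5.46 and 7.10 in strong shade, a difference of 1.02 ± 0.366. Its highest level was on the array labelled phyA strong shade 3, and the same array was the highest for AT5G66985 (0.81 ± 0.356) and AT4G37290 (0.67 ± 0.317). AT4G37290 read 2.57, 2.49 and 2.30 in shade and 2.65, 2.61 and 4.12 in strong shade, so that 1 array carried nearly all of its difference. AT1G19380 and AT2G04305 differed by 0.76 ± 0.236 and 0.65 ± 0.181. None of these 10 genes passed the adjusted test on 6 arrays.

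On arrays 1 and 2 of each group, 310 probe sets were called higher (1.36%) and 564 lower (2.48%) in strong shade, 874 in all (3.84%), with a smallest adjusted p of 0.00022. The counts at an absolute difference of at least 1 were 84 higher and 204 lower. Named genes made up 154 of the higher and 263 of the lower calls, and 78 of these 417 genes have a symbol. The fit has 2 arrays in each phyA group, and leaving out 1 of the 4 brought the calls to between 119, without strong shade array 2, and 613, without strong shade array 1. They came to 405 without shade array 1 and 251 without shade array 2. The third pair had the same sign as arrays 1 and 2 in 35 of the 874 called probe sets (4.00%), beside 35.1% of all probe sets. The array labelled phyA shade 3 lay nearer the mean of strong shade arrays 1 and 2 than that of shade arrays 1 and 2 in 805 of the 874 (92.1%), beside 59.6% of all. The array labelled phyA strong shade 3 lay nearer the shade mean in 790 (90.4%), beside 64.0% of all. The third arrays were left out because each resembled the other group. These shares were therefore largely set by that choice and are no separate test.

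**Figure D1:**
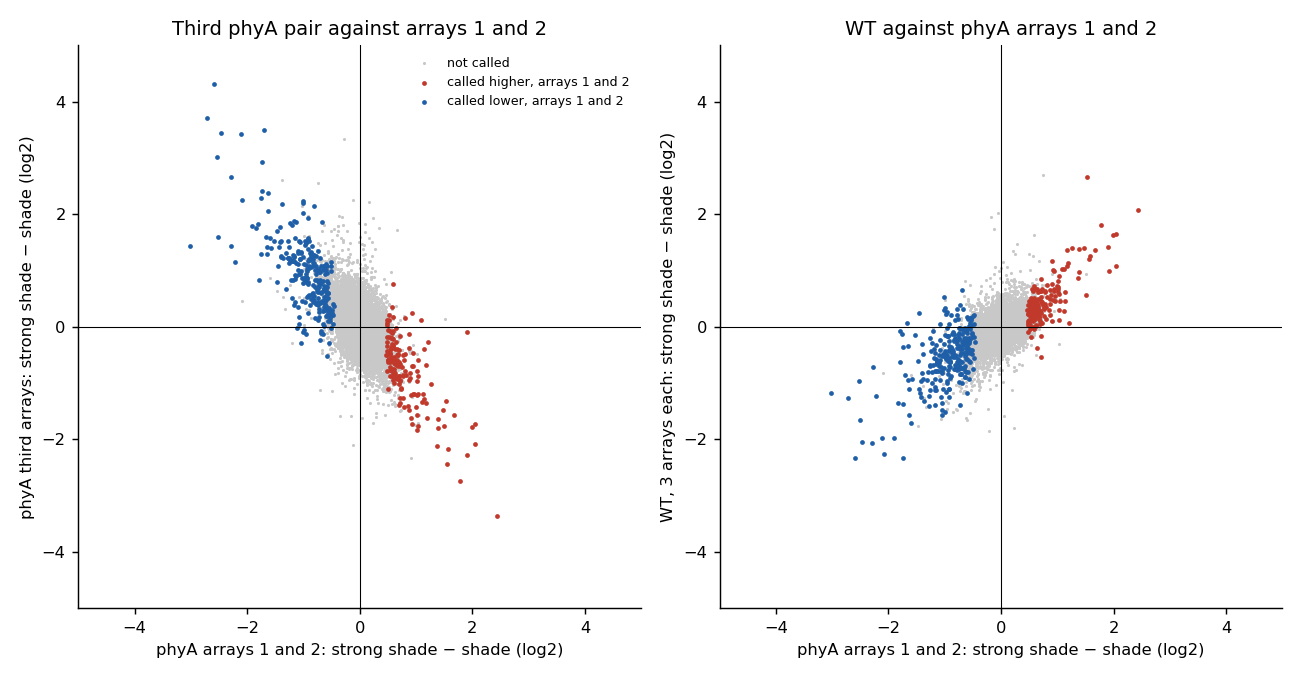
Each point is 1 of the 13356 named genes, with the strong shade minus shade difference (log2) on phyA arrays 1 and 2 on the horizontal axis and the same difference on the third phyA arrays (left) or in WT (right) on the vertical axis. Red and blue points are the 154 genes called higher and the 263 called lower on arrays 1 and 2. On the left most lie on the opposite side of 0 from their own axis, and on the right most lie on the same side.

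LEA4-5 had the largest fall among named genes. It encodes a late embryogenesis abundant protein, one of the disordered proteins that accumulate in drying seeds and in leaves short of water. Its level was 5.96, 5.66 and 2.59 on shade arrays 1, 2 and 3, and 2.69, 2.89 and 4.02 on strong shade arrays 1, 2 and 3. Shade arrays 1 and 2 were thus high and the other 4 arrays lower, with the array labelled strong shade 3 between. The difference on arrays 1 and 2 was -3.01 ± 0.655 (adjusted p = 0.0175), and that on all 6 arrays was -1.53 ± 0.789. Its call was lost when any 1 of the 4 arrays was left out.

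A further 5 genes of dehydration and abscisic acid responses that fell on arrays 1 and 2 are given here, picked in part after their values were seen. PUB19, a U-box ubiquitin ligase of drought and abscisic acid responses, read 6.06, 4.95 and 3.68 in shade and 3.39, 3.06 and 5.12 in strong shade, a difference of -2.28 ± 0.442 on arrays 1 and 2 (adjusted p = 0.00929). LEA18 and AtLEA4-1, also of the late embryogenesis abundant group, fell by 1.14 ± 0.246 and 0.90 ± 0.177. COR47, a dehydrin, read 11.07, 11.01 and 10.28 in shade and 10.44, 10.17 and 10.60 in strong shade, a fall of 0.73 ± 0.159. HIS1-3, a linker histone induced by drought, read 8.74, 8.69 and 7.38 against 8.04, 7.98 and 8.60, a fall of 0.71 ± 0.152. In all 6 genes the third pair went the other way, by 0.32 for COR47 to 1.43 for LEA4-5 and PUB19. The list of abscisic acid, dehydration and LEA targets was chosen with earlier results of these data known, so its share is no separate test. It had 6 measured members, of which 3 fell and none rose, beside 2.48% of all probe sets called lower, and the median difference was -0.98 beside 0.03 over all probe sets. Its other members, the cold-regulated genes COR15A and COR15B and the dehydrin LTI30, stood at -2.09, -1.23 and -0.55 with adjusted p of 0.19, 0.16 and 0.28. These 3 genes, which enter the list's median, were highest on shade array 1. On shade arrays 1 and 2 COR15A read 6.37 and 3.77, COR15B 5.16 and 3.66, and LTI30 7.89 and 7.03. Each call among the 6 dehydration genes was lost without shade array 1 and without strong shade array 2.

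Of the called genes with a symbol, 7 cell wall genes that fell are given here, picked in the same way. Expansins loosen walls during growth, and xyloglucan endotransglucosylase/hydrolases (XTHs) cut and rejoin xyloglucan chains. EXPA16 read 6.86, 6.31 and 5.77 in shade and 5.29, 5.33 and 6.99 in strong shade, and fell by 1.27 ± 0.228 on arrays 1 and 2 (adjusted p = 0.00593). EXPA4 read 5.42, 5.09 and 3.89 against 4.40, 4.11 and 6.12, and fell by 1.00 ± 0.195 (adjusted p = 0.00948). For both expansins the array labelled strong shade 3 held the highest of the 6 levels, and over 6 arrays EXPA4 differed by only 0.07 ± 0.424. The expansin-like gene EXLB1, the beta-expansin EXPB3 and XTH32 fell by 1.08 ± 0.218, 0.78 ± 0.188 and 1.17 ± 0.277. GH9B13, a glycosyl hydrolase of the endoglucanase family, fell by 0.77 ± 0.154, and TBL38, of a family that acetylates wall polymers, by 1.21 ± 0.253. Of the 27 expansin and XTH genes with a symbol, 5 fell, none rose, and the median difference was -0.22, beside 2.48% of all probe sets called lower. This family was chosen with earlier results of these data known, so its share is no separate test. The list of expansins and XTHs chosen for shade growth had 15 measured members, of which 2 fell (EXPA4 and EXPB3), with a median of -0.61. XTH16, at -1.07, missed the threshold with an adjusted p of 0.06. All 7 of the named wall genes lost their call without strong shade array 2.

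Of the called genes with a symbol, 7 that act in chloroplasts and fell are described next; they were picked after their values were seen and are no test of chloroplast genes as a group. CaS, a thylakoid protein of calcium signalling and stomatal closure, read 6.03, 6.55 and 4.93 in shade and 4.66, 4.31 and 6.75 in strong shade. Shade arrays 1 and 2 and the array labelled strong shade 3 were the high ones, and the fall on arrays 1 and 2 was 1.80 ± 0.217 (adjusted p = 0.000689). AOR, an oxidoreductase that detoxifies reactive carbonyls in chloroplasts, read 7.42, 7.88 and 6.47 against 6.54, 6.33 and 7.30, a fall of 1.22 ± 0.165 (adjusted p = 0.00124). These 2 calls held when any 1 array was left out. Smaller falls were found for RCA, the activase of Rubisco, at 0.56 ± 0.144, and for TROL, which anchors ferredoxin-NADP reductase to the thylakoid, at 0.55 ± 0.127. PSBW, a photosystem II subunit, fell by 0.52 ± 0.130, ATPC1, a subunit of the chloroplast ATP synthase, by 0.48 ± 0.124, and psbC, the plastid-encoded CP43 protein of photosystem II, by 0.73 ± 0.189. Those 5 calls were lost without any 1 of the 4 arrays, those of RCA and ATPC1 also under both other scalings, and those of psbC and PSBW under cyclic loess. PSBW read 10.09, 10.12 and 9.82 in shade and 9.62, 9.56 and 9.80 in strong shade, so its groups did not overlap even with the third arrays, and the third pair differed by -0.02.

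Most photosynthesis genes measured did not pass the test. Of the 10 nuclear photosynthesis genes listed, CaS and RCA fell, none rose, and the median difference was -0.31, beside 2.48% called lower over all probe sets. The antenna genes LHCB4.1, LHCB4.2 and LHCB4.3 stood at 0.01, -0.49 and -0.25. Among the 69 plastid-encoded genes 1, psbC, fell, with a median of -0.08, and among the 5 genes named as photosystem I or II subunits 1, PSBW, fell, with a median of -0.07. With so few calls, neither share is read as a result about these genes. HEMA2, a glutamyl-tRNA reductase at the start of chlorophyll synthesis, read 4.97, 4.58 and 4.99 in shade and 5.38, 5.29 and 4.79 in strong shade, and rose by 0.56 ± 0.147 (adjusted p = 0.048). That call was lost without shade array 2, strong shade array 1 or strong shade array 2, and under cyclic loess, a trended prior, a model of the compared groups alone and a replicate block. The other 4 genes of chlorophyll metabolism measured were not called, and the list's median was -0.04.

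**Figure D2:**
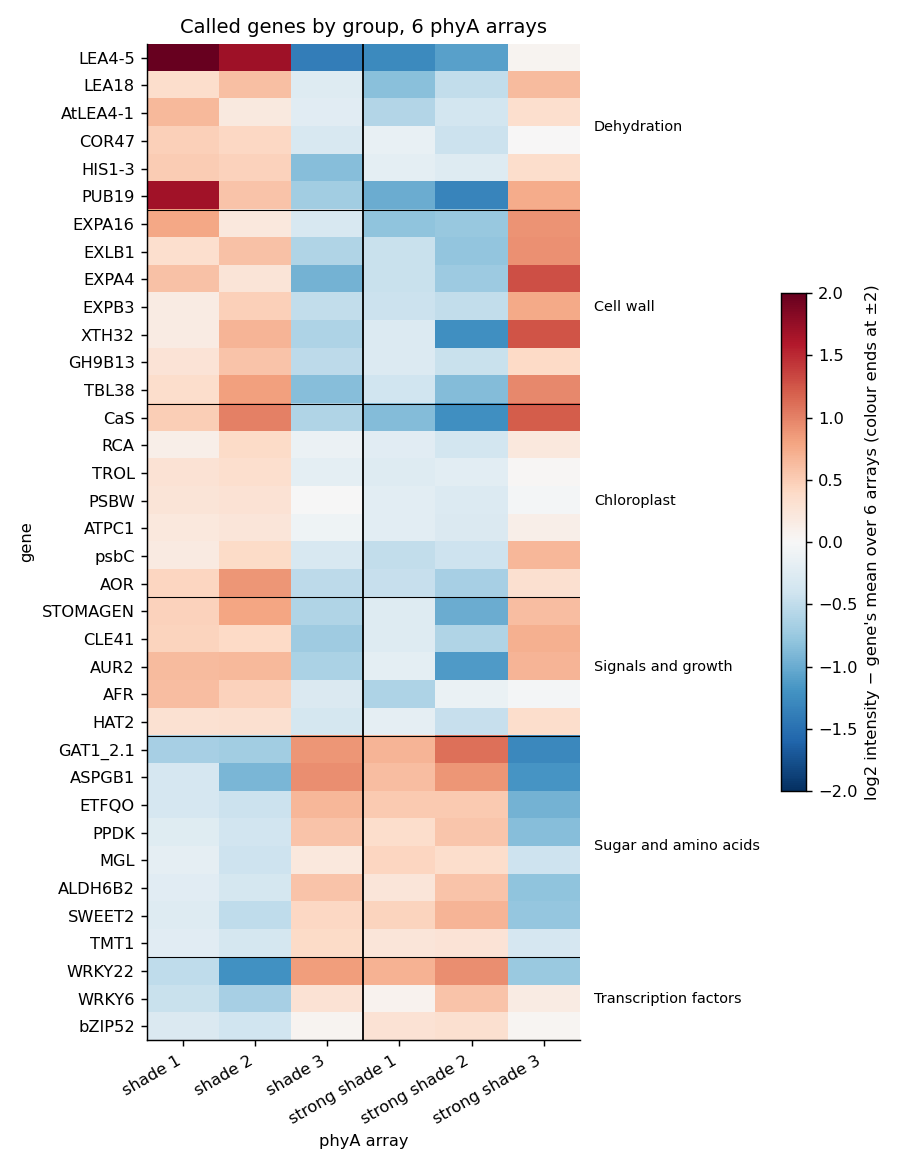
Rows are 36 called genes in 6 groups and columns the 6 phyA arrays; colour gives the log2 intensity minus the gene's mean over those arrays. In most rows the array labelled shade 3 has the colour of strong shade arrays 1 and 2, and the array labelled strong shade 3 that of shade arrays 1 and 2; LEA4-5, at 5.96 and 5.66 on shade arrays 1 and 2, has the strongest contrast.

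The falls also included 5 single genes of growth and signalling, again picked after their values were seen. STOMAGEN, a secreted peptide that promotes the formation of stomata, read 5.42, 5.76 and 4.35 in shade and 4.70, 3.97 and 5.58 in strong shade, and fell by 1.25 ± 0.226 (adjusted p = 0.00605). AUR2, an Aurora kinase of dividing cells, fell by 1.31 ± 0.270, and CLE41, a peptide that maintains vascular stem cells, by 0.85 ± 0.150. AFR, an F-box protein that acts positively in phytochrome A signalling, read 5.46, 5.29 and 4.56 in shade and 4.23, 4.70 and 4.80 in strong shade, and fell by 0.91 ± 0.215 (adjusted p = 0.0277). Its call was lost without any 1 of the 4 arrays. HAT2, a homeobox gene induced by auxin and by low red to far-red ratios, read 7.07, 7.08 and 6.40 against 6.59, 6.30 and 7.12, and fell by 0.63 ± 0.153 (adjusted p = 0.0328). All 5 calls were lost without strong shade array 2, and all 5 genes were higher on the third strong shade array than on the third shade array.

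Genes known to be induced by a low red to far-red ratio did not rise on arrays 1 and 2. Of the 4 measured, HAT2 fell and none rose, beside 2.48% of all probe sets called lower, and the median difference was -0.41. In WT all 4 (HAT2, IAA29, FHL and BIM1) were called lower, with a median of -0.84, beside 3.95% of all probe sets. None of the 4 thus rose in WT either. FHL and BIM1 stood at -0.20 and -0.05 on phyA arrays 1 and 2 and at -1.10 and -0.44 in WT. Neither passed the test of the difference between genotypes. With 4 members, these counts are not read as a result about such genes. IAA29, an auxin response repressor, stood at -0.97 with an adjusted p of 0.14. FHL, the phytochrome A import factor, read 6.73, 6.46 and 6.12 in shade and 6.42, 6.37 and 6.52 in strong shade, and its difference of -0.20 ± 0.261 was within the error (adjusted p = 0.782). HYH read 3.39, 3.08 and 3.20 against 3.22, 3.22 and 3.32, a difference of -0.01 ± 0.155 (adjusted p = 0.98). Over all 6 arrays the ranges of the 2 groups overlapped for both FHL and HYH; on arrays 1 and 2 alone the FHL levels were slightly lower in strong shade without overlap, and those of HYH overlapped. None of the 5 auxin synthesis and early response genes measured was called: GH3.3 was the lowest at -0.76 ± 0.371, WES1 the highest at 0.32 ± 0.127, and the median was 0.01. In gibberellin signalling, none of the 3 receptor genes measured was called, with GID1A highest at 0.39 and GID1C lowest at 0.03.

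Among the rises with a symbol, 8 enzymes and transporters that handle sugars or amino acids were picked after their values were seen; 3 of them (ETFQO, PPDK and MGL) belong to a list used here. GAT1_2.1, of the glutamine amidotransferase family, read 8.71, 8.68 and 10.26 in shade and 10.06, 10.48 and 8.09 in strong shade. The third arrays again lay on the other side, and on arrays 1 and 2 the rise was 1.57 ± 0.208 (adjusted p = 0.00107), which held without any 1 of the arrays. ASPGB1, an asparaginase that releases nitrogen from asparagine, read 7.02, 6.44 and 8.29 in shade and 7.97, 8.23 and 6.17 in strong shade, a rise of 1.37 ± 0.224 (adjusted p = 0.00364). ETFQO, which passes electrons from branched-chain amino acid breakdown to the respiratory chain, read 6.59, 6.50 and 7.60 against 7.45, 7.46 and 5.99, a rise of 0.91 ± 0.174 (adjusted p = 0.00828). ALDH6B2, an aldehyde dehydrogenase of valine breakdown, rose by 0.69 ± 0.154, PPDK, pyruvate orthophosphate dikinase, by 0.78 ± 0.200, and MGL, methionine gamma-lyase, by 0.69 ± 0.183 at the edge of the threshold (adjusted p = 0.0499). The sugar transporter genes SWEET2 and TMT1 rose by 0.94 ± 0.177 and 0.54 ± 0.126. Another of the SWEET sugar transporters, SWEET4, went the other way: it read 5.47, 5.05 and 2.29 in shade and 2.97, 2.53 and 3.88 in strong shade, a fall of 2.51 ± 0.632 (adjusted p = 0.0388) that was lost without any 1 of the 4 arrays. Of the 14 SWEET genes with a symbol, SWEET2 and SWEET4 were the only calls.

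Of the 9 measured genes of the dark and low-energy list, 3 rose (ETFQO, PPDK and MGL) and none fell, beside 1.36% of all probe sets called higher, and the median difference was 0.62 on arrays 1 and 2 and 0.04 on all 6. The list was chosen with earlier results of these data known, so its share is no separate test. MCCA, a subunit of the methylcrotonyl-CoA carboxylase of leucine breakdown, stood at 0.71 and its partner MCCB at 0.62, neither called. Among senescence and autophagy genes none of 9 was called, ATG8B being highest at 0.60 ± 0.200 and APG8A lowest at -0.11 ± 0.136, with a median of 0.21. Each of the 8 genes of sugar and amino acid metabolism named as rising was lower on the third strong shade array than on the third shade array. Of these 8 calls, 7 were lost without shade array 2 and 7 without strong shade array 2.

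Transcription factors were led by WRKY22, known from defence and dark-induced senescence. It read 5.15, 4.45 and 6.49 in shade and 6.35, 6.59 and 4.92 in strong shade, a rise of 1.67 ± 0.300 on arrays 1 and 2 (adjusted p = 0.00604). WRKY6, of senescence and phosphate responses, read 3.88, 3.66 and 4.62 against 4.39, 4.90 and 4.49, a rise of 0.87 ± 0.151 (adjusted p = 0.0051). Of the 6 WRKY genes with a symbol, those 2 rose and none fell, beside 1.36% of all probe sets called higher. WRKY genes with a locus tag only were not counted, and the family was chosen with earlier results of these data known. The third pair of WRKY6 differed by only -0.13, against -1.57 for WRKY22. bZIP52 rose by 0.65 ± 0.152 with the third pair near 0, at -0.02. The calls of WRKY22, WRKY6 and bZIP52 were lost without shade array 2 and without strong shade array 2.

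Many of the largest differences belonged to loci for which the names used here give no function. AT2G37870 read 6.41, 5.93 and 3.70 in shade and 3.69, 3.21 and 7.40 in strong shade, and fell by 2.72 ± 0.296 on arrays 1 and 2. AT1G80130 read 6.64, 6.46 and 3.74 against 3.96, 3.97 and 8.05, a fall of 2.59 ± 0.268 beside 4.31 on the third pair. In both, the array labelled strong shade 3 was the highest of the 6. Falls of 1.91 to 2.53 were found for AT3G02480, AT4G33550, AT5G22580, AT3G05640, AT2G47780, AT4G23680 and AT3G02640. Upward, AT3G62950 read 4.46, 3.83 and 6.74 in shade and 6.46, 6.69 and 3.37 in strong shade, a rise of 2.43 ± 0.363. AT1G50040, AT1G25400, AT1G22690, AT4G16563, AT1G19540 and AT4G37220 rose by 1.78 to 2.05, and AT4G32870, AT1G66100 and AT3G19390 by 1.50 to 1.55. Of the 12 highest and 12 lowest named genes, 10 kept their call without any 1 array, among them AT2G37870, AT1G80130 and AT3G62950, while 14 lost it without strong shade array 2. AT4G16563 was the one of the 24 that stood near 0 on the third pair, at -0.10.

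**Figure D3:**
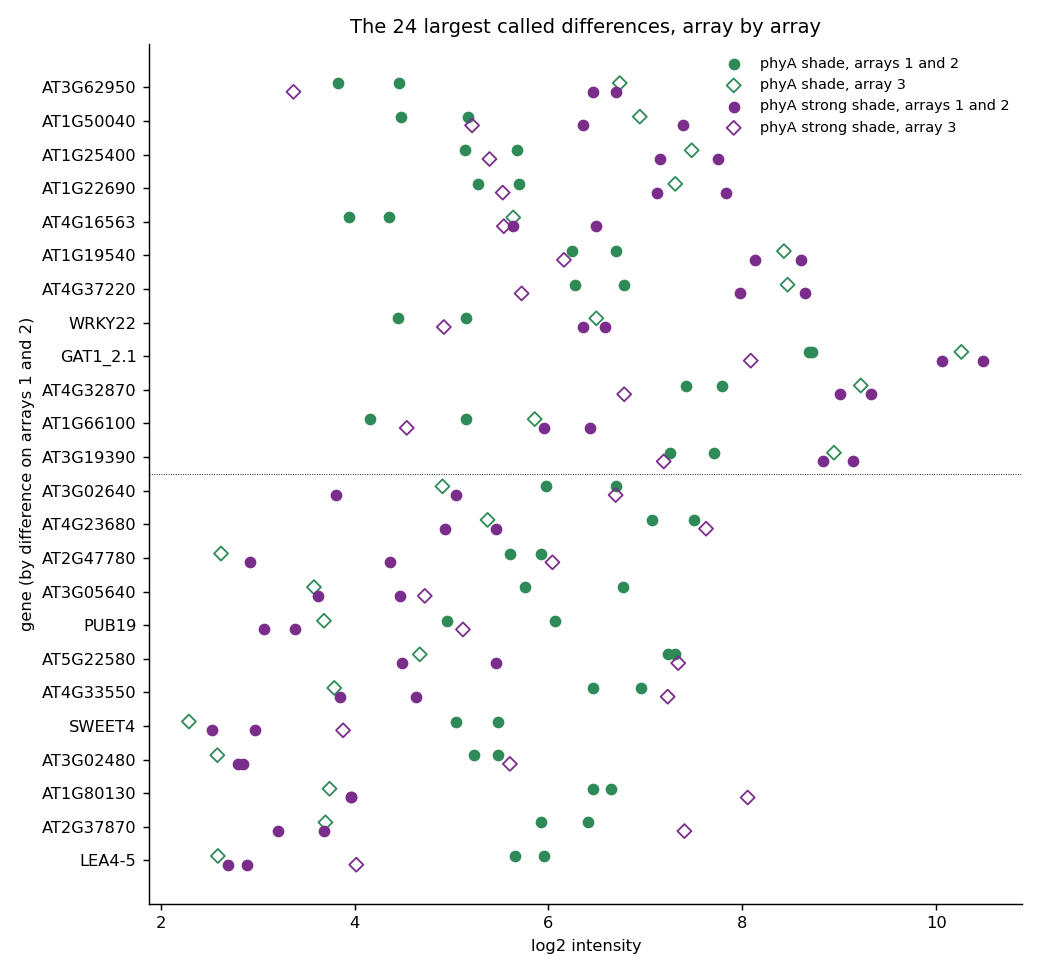
The 12 genes with the largest rise (above the dotted line) and the 12 with the largest fall on arrays 1 and 2 are shown by their log2 intensity on each phyA array, green for shade and purple for strong shade, filled circles for arrays 1 and 2 and open diamonds for array 3. For AT3G62950 the filled purple points lie at 6.46 and 6.69 with the green diamond at 6.74, and the purple diamond, at 3.37, lies below the green circles.

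Few calls from arrays 1 and 2 also parted the groups over all 6 arrays. Of the 310 probe sets called higher, 13 (4.19%) did not overlap over 6 arrays, and of the 564 called lower, 17 (3.01%), beside 4.48% and 3.2% of all probe sets. Named genes among them were 9 higher and 11 lower. AT2G29300 read 4.00, 3.58 and 3.09 in shade and 2.59, 2.77 and 3.07 in strong shade, and AT5G62340 read 4.81, 4.57 and 4.14 against 3.71, 3.57 and 3.85. They fell by 1.11 ± 0.237 and 1.05 ± 0.229 on arrays 1 and 2. AT1G65230, AT1G29700 and AT4G18810 fell by 1.01 ± 0.201, 0.99 ± 0.149 and 0.96 ± 0.197. In these 5 genes the third pair differed by -0.30 to -0.03, so the lowest shade array and the highest strong shade array lay close together. AT1G19380 read 4.97, 5.29 and 5.55 in shade and 5.81, 6.61 and 5.66 in strong shade, a rise of 1.08 ± 0.257. AT1G51310, AT2G04305, AT5G08360 and AT5G53740 rose by 0.81 ± 0.174, 0.59 ± 0.147, 0.59 ± 0.157 and 0.57 ± 0.130. For AT2G04305 the difference on the third pair, at 0.76, was larger than that on arrays 1 and 2.

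Other pathways showed few or no calls on arrays 1 and 2. None of the 5 flavonoid and anthocyanin genes was called, with CHIL lowest at -0.64 and UF3GT highest at 0.14. The same held for the 2 cytokinin response regulators (RR16 at 0.19, ARR15 at 0.18), the 2 CC-type glutaredoxins (ROXY2 at 0.34, ROXY1 at 0.12) and the clock gene GI at 0.48. It held as well for the 5 defence and jasmonate genes, where PDF1.2b was highest at 0.39 and THI2.2 lowest at -0.05, for STZ of cold responses at 0.07, and for the glucosinolate genes BCAT4 at 0.06 and GSTU20 at -0.50. Larger families were counted by their members with a symbol. Of 47 UGT glycosyltransferases 2 fell and none rose, and of 23 serine carboxypeptidase-like genes 3 fell and none rose. Of 11 GSTU glutathione transferases 1 fell. Of 21 CYP71 cytochromes P450, 1 rose and 1 fell, and 1 of 8 aldehyde dehydrogenases, ALDH6B2, rose. Over all probe sets 1.36% were called higher and 2.48% lower, and counts this small are not read as results about the families.

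Markers of organs were examined because whole seedlings were sampled. PYK10, a root and hypocotyl beta-glucosidase, read 10.06, 10.33 and 9.83 in shade and 9.58, 9.66 and 10.78 in strong shade, and fell by 0.58 ± 0.152 on arrays 1 and 2 (adjusted p = 0.0471), a call lost without any 1 of the 4 arrays and under median centring, cyclic loess and a model of the compared groups alone. The root-hair expansins EXPA7 and EXPA18 stood at -0.08 and -0.05, so 1 of the 3 root markers measured fell. The log2 of the summed root-marker intensity was 9.85 to 10.35 in shade and 9.61 to 10.79 in strong shade over 3 arrays each, and 10.08 and 10.35 against 9.61 and 9.68 on arrays 1 and 2. This sum is nearly that of PYK10 alone, since EXPA7 and EXPA18 lay at 2.46 to 3.07. The log2 of the summed intensity of the 2 green-tissue markers measured, LHCB4.1 and RCA, was 11.97 to 12.12 in shade and 11.79 to 11.85 in strong shade. The part of organ proportions in the results above was not tested.

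WT seedlings allow the same step to be read with phytochrome A present. In the fit without the third phyA arrays, WT had 523 probe sets called higher (2.3%) and 898 lower (3.95%) in strong shade than in shade; in the fit of all 16 arrays, whose shared spread includes the third phyA arrays, it had 61 and 89. Of the phyA calls, 158 higher ones were also called higher in WT, 51.0% of the phyA list and 30.2% of the WT list. Among the lower ones 296 were shared, 52.5% of the phyA list and 33.0% of the WT list. Only 1 probe set called higher in phyA and 2 called lower were called the opposite way in WT. Calls made in phyA and not in WT had the same sign in WT in 139 of 151 higher and 201 of 266 lower probe sets. A call in one genotype alone does not show that the genotypes differ, and the difference was tested directly.

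That test, phyA minus WT for the strong shade minus shade difference, called no probe set with all 12 shade arrays (0%), where 1631 had an unadjusted p under 0.05 and the smallest adjusted p was 0.142. Without the third phyA arrays it called 15 probe sets (0.0659%), all with a lower value in phyA. The count ran from 0 to 42 when 1 array was left out, with 0 without phyA shade array 2 or phyA strong shade array 1, so these calls rest on single arrays. Of the 15, 13 fell in phyA arrays 1 and 2, and 13 stood above 0 in WT. Named genes made up 9 of the 15. Each of these 9 also lost its call without WT shade array 3 and without WT strong shade array 1.

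CaS read 8.12, 8.22 and 8.09 in WT shade and 8.20, 7.62 and 8.36 in WT strong shade, a WT difference of -0.08 ± 0.178 against the fall of 1.80 in phyA. The phyA minus WT difference was -1.72 ± 0.281 (limma adjusted p = 0.0376). Unlike the call of its fall in phyA, this call was lost in 9 of 18 settings. These included a model of the compared groups alone, a replicate block, and the loss of WT shade array 2 or 3 or WT strong shade array 1 or 3. The 6 WT levels of CaS overlapped between the conditions and all lay above the 6 phyA levels. AT3G57020 read 7.44, 7.06 and 5.33 in phyA shade and 5.60, 5.57 and 6.92 in phyA strong shade, while its WT difference was 0.07 ± 0.173, and the genotypes differed by -1.73 ± 0.274. AT1G14345 read 5.46, 6.06 and 4.66 against 4.39, 4.22 and 5.73 in phyA, with a WT difference of 0.25 ± 0.151 and a genotype difference of -1.70 ± 0.238. AT1G78995 and AT2G03420 were called higher in WT, by 0.82 ± 0.150 and 0.65 ± 0.112, and in phyA stood at -0.63 ± 0.183, not called, and -0.68 ± 0.137, called. The step of AT4G33660 was near 0 in WT, at 0.05 ± 0.115, and -1.08 ± 0.141 in phyA.

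**Figure D4:**
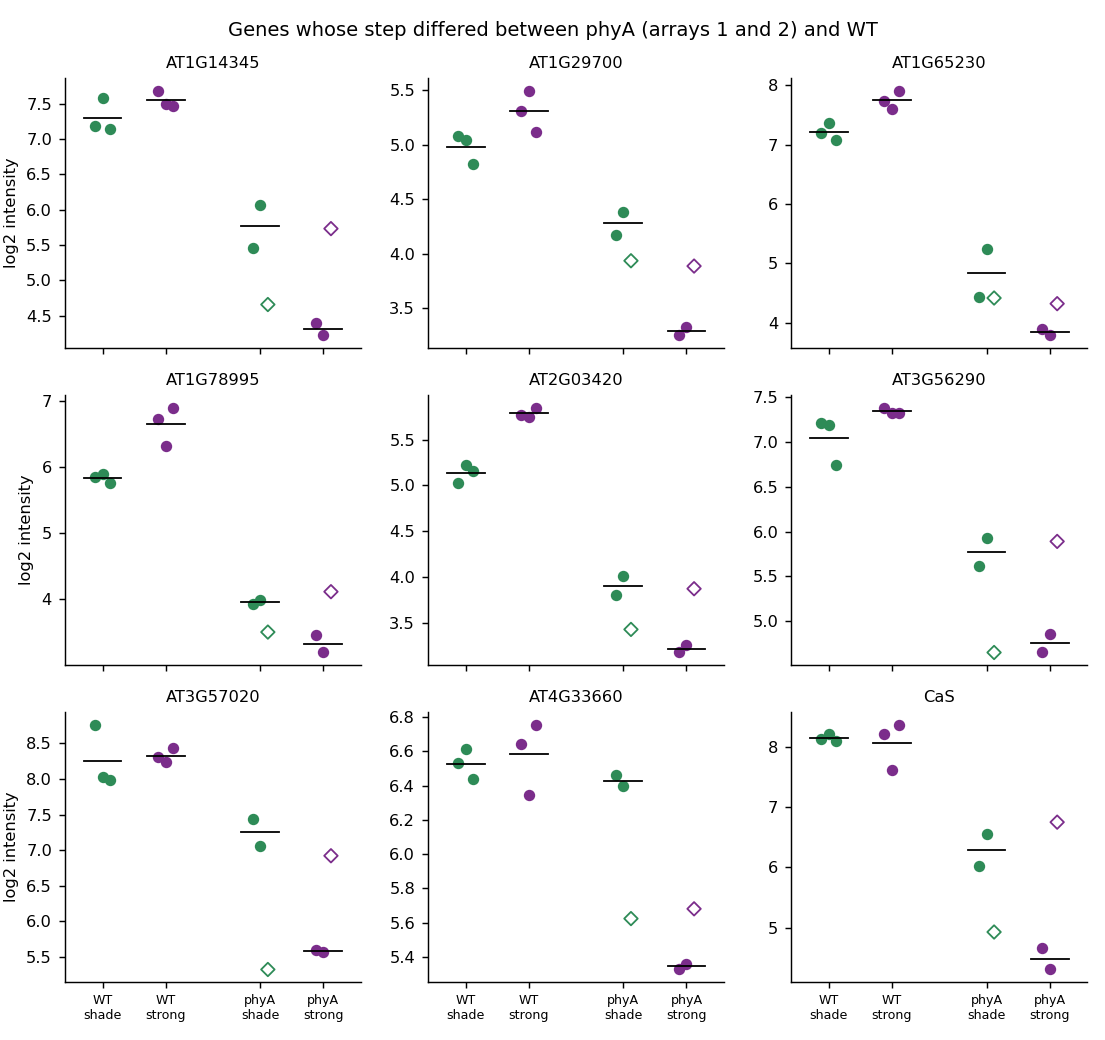
Log2 intensity of the 9 named genes whose step differed between the genotypes, for WT (left) and phyA (right) in shade (green) and strong shade (purple), 1 point per array; open diamonds are the third phyA arrays and bars are means, for phyA over arrays 1 and 2. For CaS the WT points lie between 7.62 and 8.36 in both conditions, while phyA arrays 1 and 2 lie at 6.03 and 6.55 in shade and at 4.66 and 4.31 in strong shade.

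Across the groups of genes described above, the phyA step and the WT step can be set side by side. All 6 dehydration genes, all 7 wall genes and all 8 sugar and amino acid genes had the WT sign, and 3, 4 and 7 of them were called in WT in that direction. Of all 417 named genes called in phyA, 380 had the WT sign and 197 were called in WT in that direction, and nothing particular to these groups is read from the sign. In WT, LEA4-5 read 6.04, 3.06 and 3.15 in shade against 3.09, 2.48 and 3.16 in strong shade. PUB19 read 4.95, 3.44 and 3.26 against 3.13, 2.96 and 3.43. For both genes the WT sign rested largely on WT shade array 1, and neither was called in WT. The 3 dehydration genes called in WT were AtLEA4-1, COR47 and HIS1-3. EXPA4 fell by 1.51 ± 0.159 in WT and by 1.00 ± 0.195 in phyA. The chloroplast genes had the WT sign in 5 of 7, and none of the 7 was called in WT, where their differences lay between -0.28 for AOR and 0.16 for RCA. Of those 7 only CaS passed the test of the difference between genotypes, a call lost in 9 of 18 settings. The adjusted p of AOR was 0.145 and of RCA 0.227. STOMAGEN stood at -0.19 ± 0.184 in WT, with an adjusted p of 0.264 for the difference between genotypes. In WT, FHL fell by 1.104, IAA29 fell by 1.32 and HYH rose by 0.87, and none of the 3 passed the test of the difference. THI2.2, a thionin gene, rose by 2.02 in WT and stood at -0.05 in phyA, which did not pass that test either.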

How the data were processed

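RNA of whole seedlings was measured on 16 Affymetrix arrays. The authors deposited 1 intensity per probe set and array, computed by RMA with affy, per the submitters' processing notes, which name no version. The deposited intensities were read as linear, since they ran from 2.33 to 6167, and their log2 was taken with no pseudocount and no further scaling. RMA compresses dim signals, so differences near the lowest intensities understate changes in RNA, and the number of arrays limits the precision.

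Groups came from the sample titles. limma 3.58.1 in R 4.3.3 fitted 6 group means, with eBayes, to all 16 arrays (10 residual degrees of freedom) and to 14 arrays without the third phyA array of each shade condition (8 residual degrees of freedom). All adjusted p-values are limma's, over 22746 probe sets, and values after ± are standard errors. WT differences of single genes come from the fit of 14 arrays, in which WT keeps its 3 arrays per group. Of 22746 probe sets, 13513 had 1 gene in the platform annotation, 503 had several and 8730 had none listed. Names came from a gene table of assembly TAIR10.1, and 11799 of 13356 genes have a locus tag only. A gene was represented by its probe set with the highest mean.

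The comparison, the arrays left out, the 24 gene lists and the families were chosen with earlier results of these data known. Of the 455 list entries, 88 counted as measured, that is had a symbol other than a locus tag, and 6 lists had no such member. Entries with a locus tag only were not counted, so the rest may still have probe sets. By rule, the text names the 12 highest and 12 lowest called genes on arrays 1 and 2, the 5 highest and 5 lowest genes that do not overlap over 6 arrays, with and without a call on arrays 1 and 2, the genes called in the genotype difference, up to 6 called members of each list (otherwise its highest and lowest), and FHL and HYH. Other genes with a symbol were chosen after their values were seen. Deviations of same-numbered phyA arrays from their group means correlated at -0.201, -0.402 and -0.579, with array 3 of each group moving oppositely to the others; on arrays 1 and 2 alone the correlation was -0.0135. The numbers were therefore not taken to pair the arrays. Alternatives covered the scaling (median centring, cyclic loess), the variance prior (trended, robust), weighted arrays, tests without the dimmest 40% of probe sets, a model of the compared groups alone, a block for replicate number, a minimum absolute log2 difference of 1, a single probe set for each gene, and the loss of each array in turn. The fits were tested on simulated data.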

Additional observations from a re-analysis of the deposited data

Results flagged for a closer look

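The step from shade to strong shade differed between phyA and WT for 15 probe sets when the third phyA arrays were left out, by limma's test of the difference itself, and all 15 had a lower value in phyA. The phyA minus WT differences (log2) of the 9 named genes were -1.72 for CaS, -1.73 for AT3G57020, -1.31 for AT3G56290, -1.14 for AT4G33660, -1.32 for AT1G29700, -1.70 for AT1G14345, -1.54 for AT1G65230, -1.45 for AT1G78995 and -1.34 for AT2G03420, with adjusted p of 0.0217 to 0.0473. With all 12 shade arrays none was called, and the difference of CaS was -0.51. Each of the 9 calls was also lost without WT shade array 3 and without WT strong shade array 1. The third phyA pair stood above 0 in 11 of the 15 probe sets. Its arrays were left out because each resembled the other group, so that count is no separate test.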

How the results depend on the processing

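Over all 6 phyA arrays no setting called a probe set except leaving out the third array of both groups, which gave the 874 calls of arrays 1 and 2. That count moved to 288 with an absolute log2 difference of at least 1 and to 372 with 1 probe set per gene, where fewer probe sets were tested, and ranged from 119 to 613 over the 4 leave-one-out fits. Within 1.5 times were median centring (910, of which 45.2% were higher against 35.5%), cyclic loess (864), no dim probe sets (1015), a trended (1135) or robust variance prior (864), weighted arrays (1239), only the groups compared (653) and, added after the data had been seen, a model of only the 4 shade groups (705). With the replicate number as a block, the calls were 0 on 6 arrays, 748 on arrays 1 and 2, 0 for the genotype difference on 12 arrays and 5 of the genotype difference without the third arrays. The genotype difference on 12 arrays gave 1 call with trended variances, 6 with array weights, 15 without the third phyA arrays, and 0 to 3 with 1 array left out. Without the third phyA arrays its 15 calls became 23 with median centring, 26 without dim probe sets, 81 with trended variances, 32 with array weights, 2 with only the groups compared, and 0 to 42 with 1 array left out. A group reduced to 1 array is assumed to vary like the others. The causes of these moves were not tested. No named gene changed sign in a called value. Of the 78 called genes with a symbol, 6 kept their call without any 1 of the 4 arrays and 72 lost it without strong shade array 2.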

Other observations

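Further genes with a symbol were called on phyA arrays 1 and 2 and belong to none of the groups described above. IKU1, a regulator of endosperm growth, rose by 1.03 ± 0.237 and stood at 0.13 in WT. AT-HF, of histidine synthesis, rose by 0.87 ± 0.152, ACLA-3, a subunit of ATP-citrate lyase, by 0.66 ± 0.147, and COAD, of coenzyme A synthesis, by 0.70 ± 0.135. CYTC-2, a cytochrome c gene, fell by 0.90 ± 0.142. OLEO3, an oil-body oleosin, fell by 0.81 ± 0.201, and CYS1, an inhibitor of cysteine proteases, by 0.80 ± 0.131. In all, 49 genes with a symbol fell and 29 rose. The third pair had the opposite sign in 77 of these 78, and PSBW was the exception, at -0.02. Because the third arrays were left out for resembling the other group, that count is no separate test.

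WT had the same sign as phyA arrays 1 and 2 in 71 of the 78, and in 37 of them WT was called in that direction. bZIP52 was among those that differed in sign, at 0.65 ± 0.152 in phyA and -0.38 ± 0.124 in WT, with neither the WT value nor the difference between genotypes called (adjusted p of the difference 0.0665). The probe set with the largest called difference on arrays 1 and 2, a fall of 5.35, has no gene listed in the annotation used. Values for these genes are descriptions chosen after they were seen.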
